A study of Mus musculus with 6 samples.

Results

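The genes described here code for 10 proteins with which leukocytes hold on to vessel walls and cross them, measured in whole submandibular salivary glands of mice. They were chosen by name and matched through the platform's gene symbols. All 10 had a probe set, 1 each, among 19505 named genes on the array, so none was lost and no choice between probe sets arose. The mice were females of the NOD strain, 10 weeks of age, of which 3 were Myd88-/- and 3 Myd88+/+, and each gave 1 Clariom S array with no pooling. Most Toll-like receptors, and the family of the interleukin-1 receptor, pass their signal on through Myd88, and NOD mice develop autoimmune infiltrates in the salivary glands. The strain labels give both groups as NOD.B6, and no other allele or treatment is named for either. Which part of Myd88 is missing in the Myd88-/- mice, and whether the mice were littermates, is not stated in the labels.

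Leukocytes leave the blood in steps. Selectins on endothelium slow them, integrins on the leukocyte then bind endothelial ligands of the immunoglobulin family and stop them, and receptors at endothelial junctions serve the passage between cells. The genes fall into these roles. Sele and Selp encode the endothelial selectins E and P. Icam1 and Icam2 encode ligands of the beta2 integrins, whose shared chain is Itgb2 and whose lymphocyte form pairs it with Itgal. Vcam1 and Madcam1 encode ligands of integrins that hold the alpha chain Itga4, Madcam1 being the one of gut vessels. Pecam1 encodes a receptor at endothelial junctions that platelets and leukocytes carry as well. Tumour necrosis factor and interleukin-1 raise Icam1, Vcam1 and Sele in cultured endothelium through the transcription factor NF-kB, which also lies downstream of Myd88.

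Expression is given as log2 values of the RMA method (robust multi-array average), so a difference of 1 is a doubling. Differences are Myd88-/- minus Myd88+/+. The median over 23 background control probe sets and 6 arrays, 5.55, serves as a mark of dim signal, although these controls, which are grouped by GC content, ran from 3.01 to 6.83 and the GC content of a gene's own probes is not known here. The median over 5222 intron control probe sets was higher, at 6.14. Of the 10 genes, 3 had a mean above it, namely Vcam1, Pecam1 and Itga4. Array medians lay between 6.0 and 6.1. The distance between the 10th and the 90th percentile of an array averaged 6.97 ± 0.15 for Myd88-/- and 7.20 ± 0.10 for Myd88+/+ mice (SD, n = 3 per group, two-sided exact permutation p = 0.2, the smallest possible being 0.1). The Myd88 probe set read 7.33, 6.80 and 7.47 in Myd88-/- glands, against 7.81, 7.86 and 7.53 in Myd88+/+ glands. Its difference was -0.53 (limma adjusted p = 0.462), and whether it lies in the missing part of the gene is not known here. Gland identity showed in bright acinar and duct genes. Over 6 acinar markers the mean level was 17.59 to 17.75 in Myd88-/- and 17.67 to 17.93 in Myd88+/+ mice, and over 4 markers of granular ducts 18.41 to 18.91 and 18.61 to 18.74 in Myd88-/- and Myd88+/+ mice. The acinar gene Prol1 and the duct gene Klk1 read 19.93 on all 6 arrays, so no difference could show in them. Smgc, an acinar product, averaged 19.07 ± 0.12 and 19.29 ± 0.52, Aqp5, the acinar water channel, 13.84 ± 0.10 and 13.98 ± 0.30, and Egf of the granular ducts 15.39 ± 0.81 and 15.31 ± 0.27 in Myd88-/- and Myd88+/+ mice (SD over mice, n = 3 per group).

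The 10 adhesion genes differed in sign between the genotypes. The means of 6 were lower and of 4 higher in Myd88-/- glands, where 47.5% of all 22206 probe sets had a lower mean, and their median difference was -0.13, against 0.02 over all probe sets. None passed limma's test after Benjamini-Hochberg adjustment over all probe sets (0 of 10, with adjusted p between 0.448 and 0.935), and 0% of all probe sets passed it. At an unadjusted p under 0.05, limma's test held 2 of the 10, Itga4 and Itgb2, both with a lower mean, where 5.55% of all probe sets were lower and 4.5% higher at that level. The largest differences were those of the integrin chains Itga4, with -0.76, and Itgb2, with -0.65, followed by Vcam1 with -0.53, while the integrin chain Itgal had -0.12. The endothelial selectins and the beta2 integrin ligands had small positive differences, between 0.09 and 0.27. When all probe sets are split by mean level into 2 parts of 11103, these 4 genes lie in the dimmer part. In that part 7274 probe sets had a higher and 3829 a lower mean in Myd88-/- glands, at a median difference of 0.09. Whether the 4 genes differ from the rest of that part was not tested. RNA of a whole gland mixes all its cells, so fewer cells of a type and less RNA per cell cannot be told apart.

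**Figure D1:**
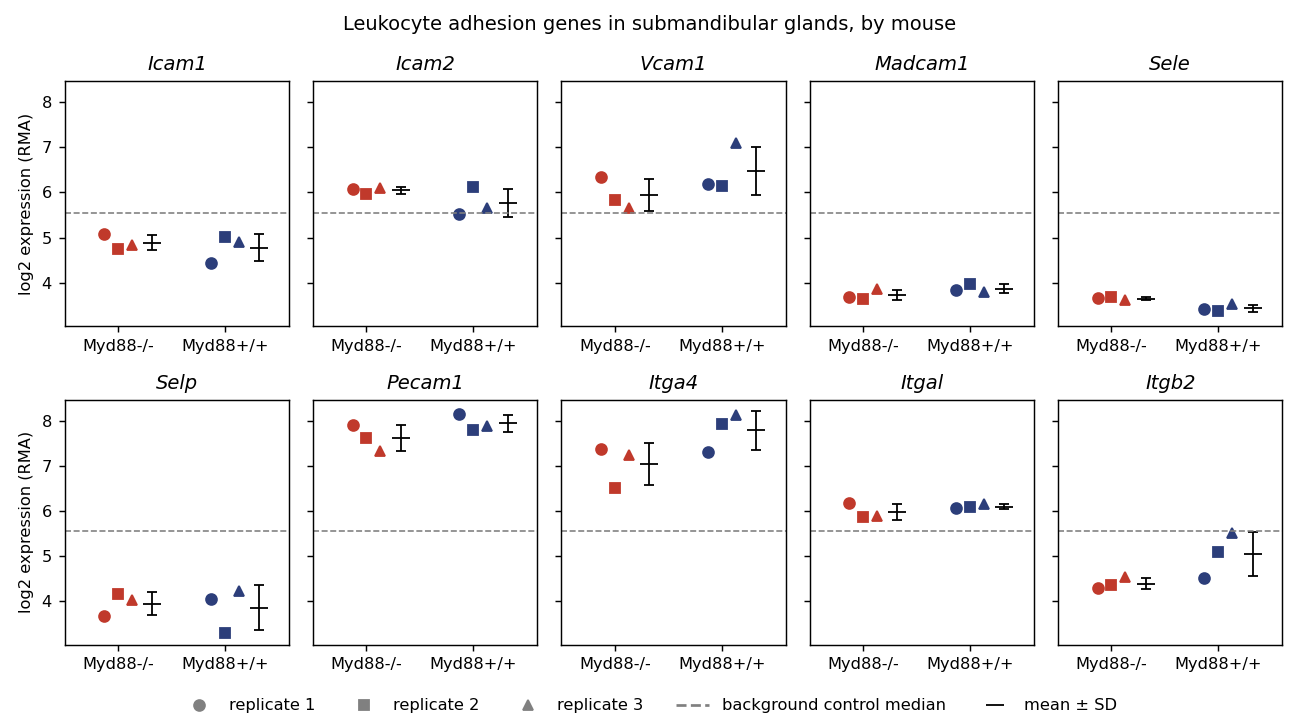
Log2 expression of the 10 adhesion genes (y axis, shared by all panels) in each mouse, with Myd88-/- left of Myd88+/+ and marker shape for the replicate number. Black marks give the mean ± SD of 3 mice and the dashed line the background control median of 5.55. Only for Sele do the 2 groups not overlap, and both lie far under that line.

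The integrin chains of leukocytes are Itga4, Itgb2 and Itgal. Itga4, the alpha chain of the receptors for Vcam1 and Madcam1, read 7.36, 6.51 and 7.24 in Myd88-/- replicates 1, 2 and 3, against 7.31, 7.94 and 8.13 in Myd88+/+ replicates 1, 2 and 3. Myd88-/- replicate 2 was the lowest of all mice, and the groups overlapped because Myd88+/+ replicate 1 lay between the Myd88-/- values. The group means were 7.04 ± 0.46 and 7.79 ± 0.43 (SD over mice, n = 3 per group), a 1.69-fold lower level in Myd88-/- glands, with an SE of 0.28 on the log2 scale and a 95% interval from -1.40 to -0.12 (limma adjusted p = 0.448). Leaving out Myd88-/- replicate 2 brought the difference to -0.49, and leaving out Myd88+/+ replicate 1 brought it to -1.0. The groups did not overlap after median centring, which gave -0.78. In the deposited values 7.25% of all probe sets were lower with no overlap, and the share after median centring is not given here.

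Itgb2, the beta chain that every leukocyte integrin of its family shares, read 4.29, 4.35 and 4.54 in Myd88-/- glands, against 4.52, 5.09 and 5.50 in Myd88+/+ glands. Myd88+/+ replicate 3 was the highest, and Myd88+/+ replicate 1 lay inside the Myd88-/- range, so the groups overlapped narrowly. Means were 4.39 ± 0.13 and 5.04 ± 0.49 (SD over mice, n = 3 per group), a difference of -0.65 with an SE of 0.25 and a 95% interval from -1.20 to -0.09 (limma adjusted p = 0.452). Every one of these values lies under the background control median, so the size of the difference is uncertain. The difference was -0.41 without Myd88+/+ replicate 3 and -0.90 without Myd88+/+ replicate 1. After quantile normalization, cyclic loess or median centring its 2 groups did not overlap, and the difference was -0.74, -0.74 and -0.67. The share of all probe sets with no overlap under these settings is not given here, and in the deposited values it was 7.25% for lower ones.

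Itgal, the alpha chain of the main lymphocyte receptor for Icam1 and Icam2, read 6.18, 5.86 and 5.89 in Myd88-/- glands, against 6.05, 6.09 and 6.15 in Myd88+/+ glands. Its 6 values stayed within a narrow range, and Myd88-/- replicate 1 was the highest of them. The difference was -0.12 with a 95% interval from -0.50 to 0.26 (limma adjusted p = 0.839). The difference of Itga4 lies outside that interval, but the 95% interval of Itga4, from -1.40 to -0.12, overlaps it. Whether the 2 genes differ from each other was not tested. On leaving out 1 mouse the difference of Itgal ran from -0.22 to -0.061.

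The partner chains of these integrins were uneven. Itgam, which pairs with Itgb2 on myeloid cells, read 4.83, 4.86 and 5.45 in Myd88-/- glands, against 5.99, 6.68 and 6.55 in Myd88+/+ glands, with no overlap, as in 7.25% of all probe sets that were lower. Its difference was -1.36 (limma adjusted p = 0.321). Itgax, the partner of Itgb2 on dendritic cells and some macrophages, had -0.40, and Itgad, another alpha chain of that family, had 0.30, with both groups of each under the background control median. Itgb7, which joins Itga4 in the receptor for Madcam1, read 9.03, 9.09 and 9.02 in Myd88-/- glands, against 9.40, 9.43 and 9.22 in Myd88+/+ glands. Those groups did not overlap except after quantile normalization, and the difference was -0.30 (limma adjusted p = 0.562). Itgb1, its partner in the receptor for Vcam1 and a chain of nearly all cell types, was picked after its values were seen and averaged 13.20 ± 0.17 in Myd88-/- and 13.42 ± 0.19 in Myd88+/+ glands (SD over mice, n = 3 per group). Of the 13 measured chains in a list of other leukocyte integrins, 7 had a lower and 6 a higher mean, the median difference being -0.05, and 0 passed. Without Myd88+/+ replicate 3 that median was 0.06.

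**Figure D2:**
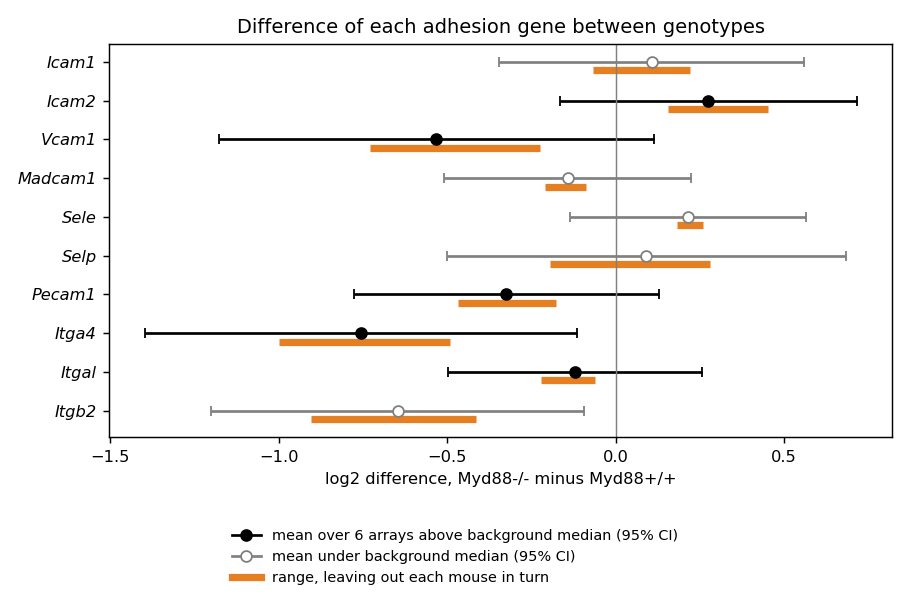
Log2 difference, Myd88-/- minus Myd88+/+ (x axis), of each adhesion gene (y axis), with limma's 95% interval. Filled points are genes whose mean over 6 arrays is above the background control median, open grey points those under it, and orange bars span the differences found on leaving out each mouse in turn. The intervals of Itga4 (-1.40 to -0.12) and Itgb2 (-1.20 to -0.09) lie below 0, the other 8 include 0.

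On the endothelial side, Vcam1, the ligand of Itga4 with Itgb1, read 6.34, 5.84 and 5.66 in Myd88-/- glands, against 6.19, 6.15 and 7.09 in Myd88+/+ glands. Myd88+/+ replicate 3 stood above all other mice, and Myd88-/- replicate 1 was higher than the other two Myd88+/+ mice, so the groups overlapped. Means were 5.94 ± 0.35 and 6.47 ± 0.53 (SD over mice, n = 3 per group), a difference of -0.53 with an SE of 0.29 (limma adjusted p = 0.57). Without Myd88+/+ replicate 3 the difference was -0.22.

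Madcam1 was dim in every gland, with 3.68, 3.63 and 3.85 in Myd88-/- and 3.84, 3.97 and 3.78 in Myd88+/+ glands. The groups overlapped and differed by -0.14, with a 95% interval from -0.51 to 0.22 (limma adjusted p = 0.799). After quantile normalization or cyclic loess its groups did not overlap, at a difference of -0.24 under each, and with 1 mouse left out it ran from -0.21 to -0.089. How many of all probe sets had no overlap under these settings is not given here.

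Icam1, the inducible ligand of the beta2 integrins, read 5.08, 4.75 and 4.83 in Myd88-/- glands, against 4.43, 5.01 and 4.90 in Myd88+/+ glands. All of these values lie under the background control median, and the groups overlapped. The difference was 0.11 with a 95% interval from -0.35 to 0.56 (limma adjusted p = 0.891), and it turned to -0.07 without Myd88+/+ replicate 1. Icam1 lies on chromosome 9, as Myd88 does, but the distance between the genes and any linkage were not examined.

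Icam2, which resting endothelium carries without induction, read 6.07, 5.96 and 6.11 in Myd88-/- glands, against 5.53, 6.12 and 5.65 in Myd88+/+ glands. Myd88+/+ replicate 2 was the highest of all mice, and the rest of its group were the lowest. The means, 6.04 ± 0.08 and 5.77 ± 0.31 (SD over mice, n = 3 per group), differed by 0.27 with a 95% interval from -0.17 to 0.72 (limma adjusted p = 0.668). With Myd88+/+ replicate 2 left out there was no overlap, and the difference was 0.45, against 0.16 with Myd88+/+ replicate 1 left out. Overlap is rarer with fewer mice, and the share of all probe sets without it is not given for that setting.

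Sele, the selectin that endothelium makes on activation, read 3.66, 3.67 and 3.61 in Myd88-/- glands, against 3.41, 3.37 and 3.52 in Myd88+/+ glands. Here alone among the 10 did the groups not overlap, with the Myd88-/- glands higher, as in 7.84% of all probe sets. The difference was 0.21, a 1.16-fold higher level, with an SE of 0.16 and a 95% interval from -0.13 to 0.56 (limma adjusted p = 0.673). Probe sets in the dimmer 50% of the array had a median difference of 0.09, and the groups of Sele overlapped after quantile normalization or cyclic loess, which gave 0.14 and 0.12.

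Selp, the selectin stored in endothelial cells and platelets, read 3.66, 4.15 and 4.02 in Myd88-/- glands, against 4.05, 3.29 and 4.23 in Myd88+/+ glands. The 2 extremes were both Myd88+/+ mice. The difference of 0.09 had a 95% interval from -0.50 to 0.68 (limma adjusted p = 0.935), and its sign turned under cyclic loess (-0.0027). Platelet markers, which could carry Selp and Pecam1, had mean levels of 4.95 to 5.05 in Myd88-/- and 4.79 to 5.06 in Myd88+/+ glands over 5 measured genes. Their means were lower for 2 and higher for 3, at a median difference of 0.09, which turned to -0.08 without Myd88+/+ replicate 1 and to -0.005 without Myd88-/- replicate 3. Of the 5, 3 had a mean under the background control median. Among those 3 were Ppbp, a platelet chemokine, at a difference of 0.28, Gp5, a platelet glycoprotein, at 0.10, and Gp6, the platelet collagen receptor, which was named after its values were seen, at -0.05.

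Pecam1, the junctional receptor, read 7.91, 7.63 and 7.33 in Myd88-/- glands, against 8.16, 7.79 and 7.89 in Myd88+/+ glands. Myd88-/- replicate 1 lay inside the Myd88+/+ range. The means, 7.62 ± 0.29 and 7.94 ± 0.19 (SD over mice, n = 3 per group), differed by -0.32 with a 95% interval from -0.78 to 0.13 (limma adjusted p = 0.626). On leaving out 1 mouse the difference ran from -0.47 (Myd88-/- replicate 1) to -0.18 (Myd88-/- replicate 3).

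**Figure D3:**
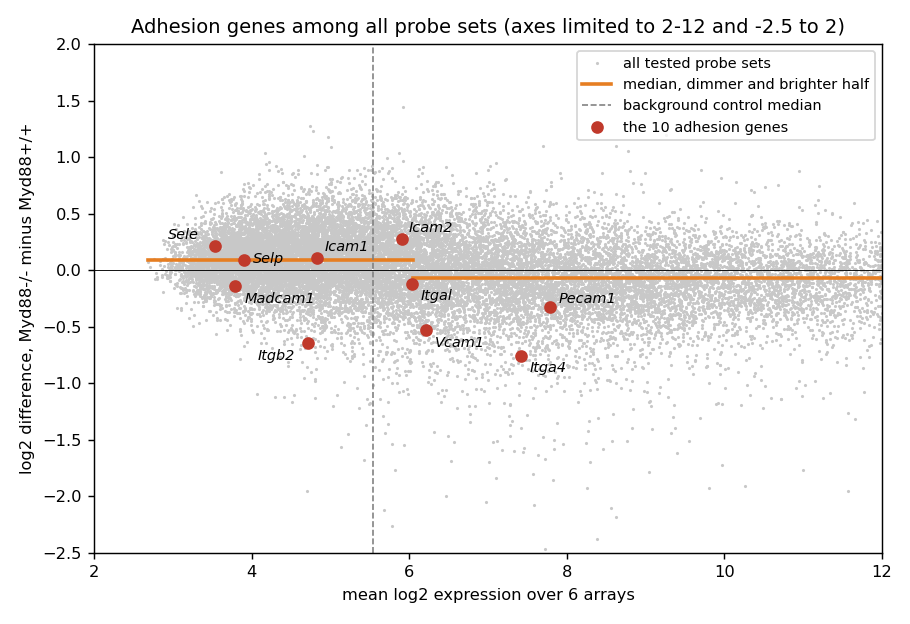
Log2 difference, Myd88-/- minus Myd88+/+ (y axis), against mean log2 expression over 6 arrays (x axis), for all tested probe sets (grey) and the 10 adhesion genes (red). Orange lines are the medians of the dimmer 50% (0.09) and the brighter 50% (-0.07) of probe sets, and the dashed line is the background control median. The adhesion genes lie inside the grey cloud, and 5 of them are left of the dashed line.

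RefSeq promoter sequences of build GRCm38.p6, from 250 bases before to 50 after the start of a gene, were at hand for 5 of the 10 genes, and 4 are printed because they set inducible endothelial genes beside the gene with the largest difference. A pair of short motifs was searched on both strands. GGNNNTTCC is a loose form of the site of NF-kB, and TTCNNNGAA is the core to which STAT factors of interferon signalling bind. The first occurs in 18.5% and the second in 8.30% of 32851 promoters of this length. Matches are in capitals, and where 2 overlap the capitals run through both. Icam1 (chr9:21015690-21015989, plus strand) held the first motif at 153 and 84 bases before the start and the second at 42 bases before it. Sele (chr1:164047984-164048283, plus strand) held the first at 145 and the second at 140 bases before the start, overlapping. Madcam1 (chr10:79664309-79664608, plus strand) held the first at 83 and 70 bases before the start. Itga4 (chr2:79255176-79255475, plus strand) held neither. A match describes letters and not a bound site.
Icam1: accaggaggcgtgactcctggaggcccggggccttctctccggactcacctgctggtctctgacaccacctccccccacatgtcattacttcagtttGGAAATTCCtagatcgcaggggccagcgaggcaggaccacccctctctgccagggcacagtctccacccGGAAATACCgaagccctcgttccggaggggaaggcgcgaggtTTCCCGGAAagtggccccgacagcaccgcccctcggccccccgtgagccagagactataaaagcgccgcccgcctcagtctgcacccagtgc
Sele: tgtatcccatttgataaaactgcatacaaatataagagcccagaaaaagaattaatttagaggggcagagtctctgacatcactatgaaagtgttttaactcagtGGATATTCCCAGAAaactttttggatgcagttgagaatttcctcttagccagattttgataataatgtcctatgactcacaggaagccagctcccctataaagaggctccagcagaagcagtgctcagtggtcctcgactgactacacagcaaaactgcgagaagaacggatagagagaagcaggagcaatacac
Madcam1: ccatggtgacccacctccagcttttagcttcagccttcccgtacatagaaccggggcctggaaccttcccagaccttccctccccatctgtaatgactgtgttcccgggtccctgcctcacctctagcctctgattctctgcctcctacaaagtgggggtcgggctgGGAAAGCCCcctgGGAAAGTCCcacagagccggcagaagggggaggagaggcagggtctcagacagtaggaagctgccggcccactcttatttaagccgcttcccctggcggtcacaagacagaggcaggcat
Itga4: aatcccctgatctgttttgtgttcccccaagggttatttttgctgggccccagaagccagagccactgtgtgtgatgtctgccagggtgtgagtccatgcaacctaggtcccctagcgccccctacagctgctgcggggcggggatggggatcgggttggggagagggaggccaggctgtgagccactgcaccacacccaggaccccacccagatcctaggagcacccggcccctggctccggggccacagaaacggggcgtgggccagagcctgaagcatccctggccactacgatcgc
Beside these sequences stand the differences given above, 0.11 for Icam1, 0.21 for Sele, -0.14 for Madcam1 and -0.76 for Itga4. Selp, with a difference of 0.09, held the first motif at 14 bases before its start.

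Wider lists show the rest of the adhesion pathway. In the list of selectin ligands and of the enzymes that build them, 8 of 16 measured genes had a lower and 8 a higher mean, at a median of -0.005, and 0 passed. Selplg, the leukocyte ligand of P-selectin, read 7.03, 6.40 and 7.71 in Myd88-/- glands, against 7.75, 8.74 and 9.40 in Myd88+/+ glands. The lowest Myd88+/+ value lay just above the highest Myd88-/- value, and after quantile normalization or cyclic loess the groups overlapped. The level was 3.00-fold lower in Myd88-/- glands, a difference of -1.59 (limma adjusted p = 0.368). Cd34, a sialomucin of endothelium and stromal cells, had -0.72, with 9.60 ± 0.20 in Myd88-/- and 10.32 ± 0.08 in Myd88+/+ glands (SD over mice, n = 3 per group). Among the enzymes, the sialyltransferase gene St3gal6 had -0.78 and Gcnt1, which starts branches on O-linked glycans, had 0.81 with 15.54 ± 0.38 in Myd88-/- and 14.73 ± 0.19 in Myd88+/+ glands (SD over mice, n = 3 per group). Both enzymes also act on glycans of many other proteins.

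Of the genes listed around integrin activation in leukocytes, 18 of 18 had a lower mean in Myd88-/- glands. The median difference was -0.29, and 0 passed limma's adjusted test. The list was not sorted into genes that raise and genes that lower integrin activity, and other cells of the gland may express some of them. Over all probe sets 47.5% had a lower mean, and in the brighter 50% of probe sets 6709 of 11103 did. Of the 18 genes, 13 lie in that brighter part. The count of lower means among the 18 genes was 16 after quantile normalization and 17 after cyclic loess. Their differences ran from -1.17 to -0.05, and without Myd88+/+ replicate 3 the median was -0.13 and 14 of the 18 were lower. Fyb, an adaptor that links antigen receptors to integrins, read 6.03, 5.85 and 5.59 in Myd88-/- glands, against 7.04, 6.42 and 7.52 in Myd88+/+ glands, with no overlap and a limma adjusted p of 0.339. Coro1a, an actin regulator of leukocytes, had -0.76, the adaptor Lcp2 -0.63 and the GTPase Rac2 -0.53. The groups of Coro1a did not overlap, while those of Lcp2 and Rac2 did.

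Junctional and other adhesion receptors had 11 lower and 9 higher means among 20 genes, with a median of -0.14. When Myd88+/+ replicate 3 was left out, 10 were lower and 10 higher, and the median was 0.0005. F11r, a junctional adhesion molecule of epithelium and endothelium, read 12.17, 12.53 and 12.18 in Myd88-/- glands, against 13.24, 12.80 and 12.60 in Myd88+/+ glands (limma adjusted p = 0.44). Aoc3, an amine oxidase on vessels that leukocytes bind, had -0.33, Cd244a of cytotoxic lymphocytes -0.66 and Cd47, a signal that restrains phagocytosis, -0.49. The cytokines and receptors that induce endothelial adhesion genes had 11 lower and 4 higher means of 15, at a median of -0.12 (-0.05 without Myd88-/- replicate 1 and -0.22 without Myd88-/- replicate 3), and in none of them did the groups separate. Il1r1, the interleukin-1 receptor that needs Myd88, averaged 9.27 ± 0.13 in Myd88-/- and 9.75 ± 0.51 in Myd88+/+ glands (SD over mice, n = 3 per group). Tnfrsf1a had -0.37, Il4ra -0.41 and Lta, the lymphotoxin gene, 0.38.

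**Figure D4:**
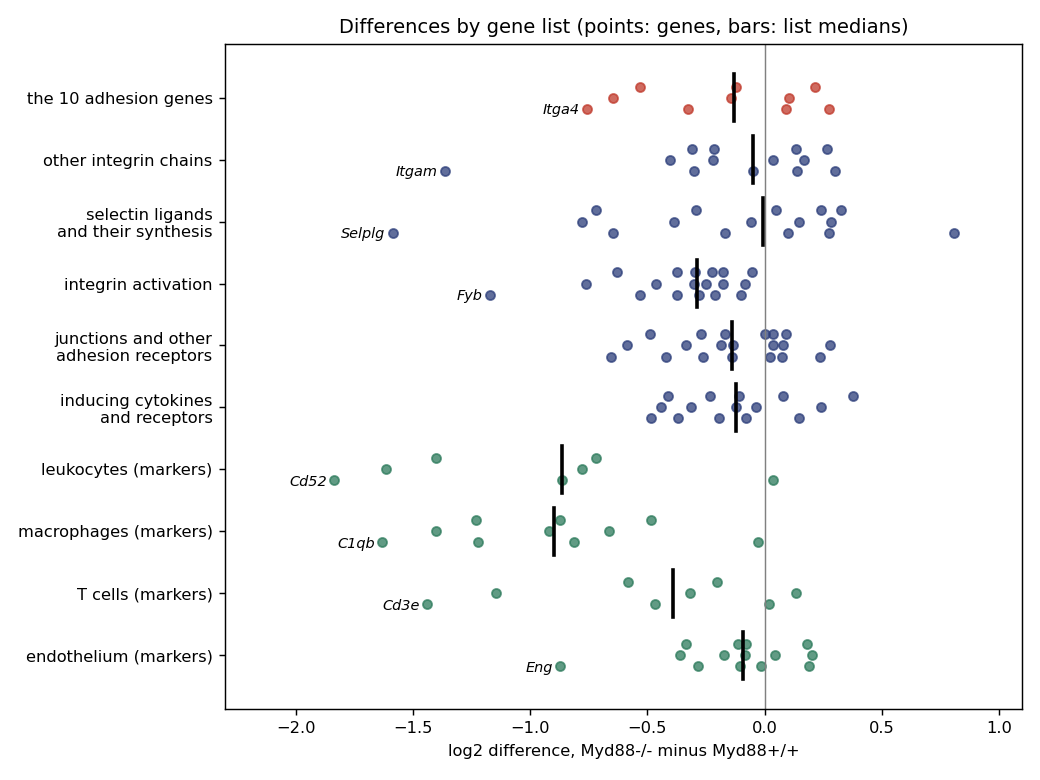
Log2 difference, Myd88-/- minus Myd88+/+ (x axis), of each gene in the adhesion set, in 5 wider lists and in 4 marker lists (y axis). Points are genes and black bars list medians, and the lowest gene is named where it lies under -0.7. The medians are -0.13 for the 10 adhesion genes, -0.86 for leukocyte markers, -0.90 for macrophage markers and -0.09 for endothelial markers.

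Most general leukocyte, macrophage and T cell markers had lower mean levels in Myd88-/- glands, as Itga4 and Itgb2 did. B cell and neutrophil markers did not, with 3 of 6 and 2 of 6 lower. Over 7 general leukocyte markers the mean level was 7.02 to 7.28 in Myd88-/- and 7.40 to 9.05 in Myd88+/+ glands, with 6 of 7 lower, a median difference of -0.86 and 0 of 7 past limma's adjusted test. Without Myd88+/+ replicate 3 that median was -0.46. Of the 7, 5 lie in the brighter 50% of probe sets, where 6709 of 11103 had a lower mean. Ptprc, which encodes the leukocyte antigen CD45, read 8.28, 8.90 and 8.60 in Myd88-/- glands, against 9.28, 9.91 and 11.43 in Myd88+/+ glands, and Cd52 had -1.83. Macrophage markers were lower in 10 of 10 (9 of 10 after quantile normalization or cyclic loess), at levels of 7.30 to 7.57 in Myd88-/- and 8.03 to 8.87 in Myd88+/+ glands, among them C1qb of complement with -1.63 and the growth factor receptor Csf1r with -1.23. All 10 lie in the brighter 50% of probe sets, where 6709 of 11103 had a lower mean. T cell markers spanned 5.32 to 5.78 in Myd88-/- and 5.59 to 6.71 in Myd88+/+ glands, 6 of 8 genes being lower at a median difference of -0.39. Of the 8, 5 had a mean under the background control median. The genes with the smallest p were Cd3e, at -1.44, and Cd3g, one of those 5, at -1.14. Without Myd88+/+ replicate 3 the differences of Cd3e and Cd3g were -0.51 and -0.37, and 5 of 8 were lower. Myd88+/+ replicate 3 had the highest level in the leukocyte, macrophage and T cell lists, and also the highest value of Vcam1, Selp, Itga4 and Itgb2. This was not particular to those lists. The same mouse was highest in the B cell, fibroblast, myoepithelial, platelet, lymphatic and lymph node lists. It was not highest in the endothelial, neutrophil, acinar, granular duct, muscle and adipocyte lists. The part of any of these cell types in the differences of the adhesion genes was not tested.

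Endothelial markers had smaller differences. Over 14 measured genes there were 10 lower and 4 higher means, a median of -0.09, and levels of 5.58 to 6.08 in Myd88-/- and 5.76 to 6.18 in Myd88+/+ glands. Without Myd88-/- replicate 3 there were 5 lower and 9 higher means at a median of 0.03, without Myd88+/+ replicate 1 there were 7 of each at 0.01, and without Myd88-/- replicate 2 the median was -0.30. The 2 genes with the smallest p, Eng and Mmrn2, had -0.87 and -0.36 with overlapping groups, and Eng had -0.34 without Myd88-/- replicate 3. Cdh5, the cadherin that defines endothelial junctions, was picked after its values were seen and averaged 7.63 ± 0.26 in Myd88-/- and 7.90 ± 0.09 in Myd88+/+ glands (SD over mice, n = 3 per group), a difference of -0.27. Markers of lymph nodes and their high endothelial venules were dim, 5 of 7 being under the background control median, with levels of 4.95 to 5.19 in Myd88-/- and 4.85 to 5.28 in Myd88+/+ glands. Of these 7, 4 were lower, at a median of -0.05, which turned to 0.06 without Myd88+/+ replicate 3. Chst4, a sulfotransferase of such venules, had 0.33 and Ccl21a, a chemokine of lymphatic endothelium and lymph nodes, -0.17. Lymphatic markers had 5 lower and 1 higher mean of 6, at a median of -0.08, which turned to 0.03 without Myd88-/- replicate 2 and to 0.02 without Myd88+/+ replicate 3. The higher one, Prox1, the transcription factor of lymphatic endothelium, which salivary epithelium can also express, had 0.84 (limma adjusted p = 0.411). B cell markers gave 4.42 to 4.57 in Myd88-/- and 4.23 to 4.84 in Myd88+/+ glands, 3 of 6 being lower (6 of 6 without Myd88+/+ replicate 1 and 0 of 6 without Myd88+/+ replicate 3), with differences of -0.22 for Cd79a and 0.09 for Cd22. Neutrophil markers gave 4.67 to 4.73 in Myd88-/- and 4.61 to 4.71 in Myd88+/+ glands, 2 of 6 being lower, with differences of -0.17 for S100a8 and 0.32 for Mmp8. Fibroblast markers were lower in 6 of 6, at a median of -0.80, with Col1a2 at -1.12 and Dpt at -1.30, and myoepithelial markers in 7 of 7 (6 of 7 after quantile normalization or cyclic loess), at -0.45, with Acta2 at -0.81 and Krt14 at -0.62. The myoepithelial median was -0.25 both without Myd88+/+ replicate 3, with 5 of 7 lower, and without Myd88-/- replicate 3, with 6 of 7 lower. All the fibroblast and myoepithelial markers lie in the brighter 50% of probe sets, where 6709 of 11103 had a lower mean. Fibroblasts can make Vcam1, and the part of these cells in its difference was not tested.

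The genes nearest in pattern were sought for the genes above the background control median whose 6 values spanned over 1 log2 unit, which were Vcam1 and Itga4. Nearness is the root mean square distance between profiles after each gene's mean over the 6 arrays was removed, among 11392 other named genes above that median. Nearest to Itga4 were Plxnc1, a plexin of leukocytes among other cells, at 0.07, and Cd4, the coreceptor of helper T cells, at 0.10. Cd4 read 7.77, 6.86 and 7.68 in Myd88-/- glands, against 7.48, 8.21 and 8.36 in Myd88+/+ glands, lowest like Itga4 in Myd88-/- replicate 2. Nearest to Vcam1 were Sfrp1, a secreted Wnt antagonist, at 0.10 and Tnfsf10, a death ligand induced by interferon, at 0.13. Sfrp1 read 6.65, 6.19 and 6.14 in Myd88-/- glands, against 6.57, 6.56 and 7.72 in Myd88+/+ glands, highest like Vcam1 in Myd88+/+ replicate 3. Vcam1 itself ranked 414 in nearness to Itga4, at 0.37, and Icam2 ranked 6794. With 6 arrays such a ranking describes these glands only. That the nearest genes share a highest or lowest mouse follows from their choice by nearness.

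**Figure D5:**
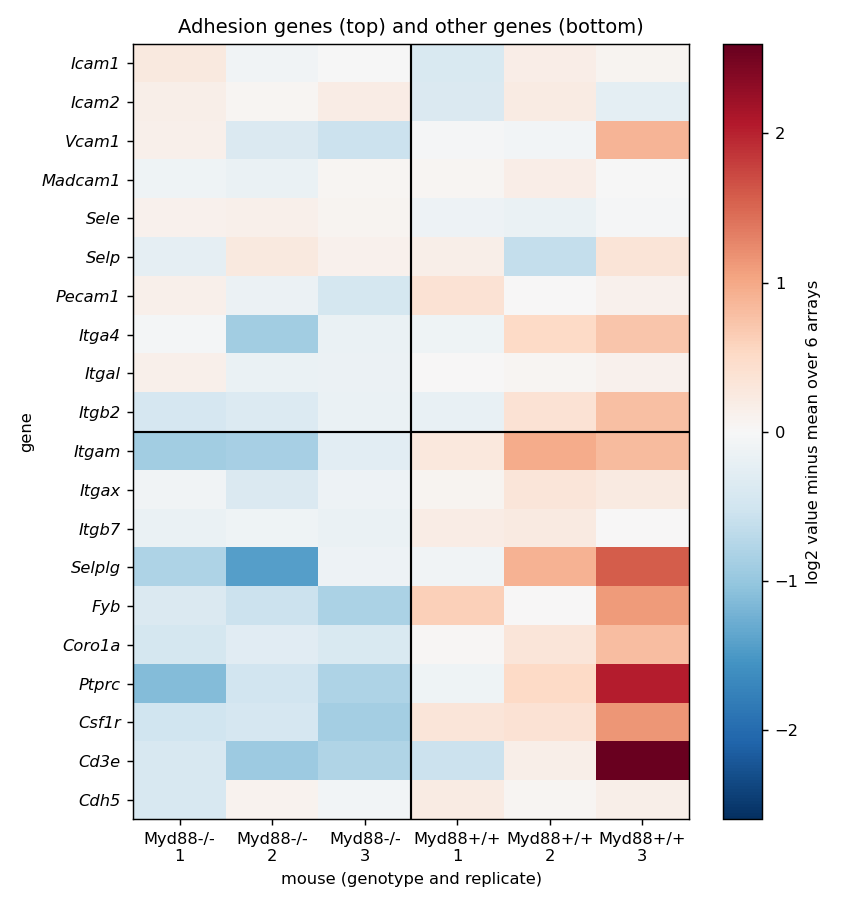
Log2 value minus the gene's mean over 6 arrays (colour) for the 10 adhesion genes (above the line) and for partner chains, leukocyte genes and the endothelial gene Cdh5 (below it), in rows, with Myd88-/- mice in the left columns and Myd88+/+ mice in the right ones. Ptprc, Cd3e and Selplg are reddest in Myd88+/+ replicate 3, as are Vcam1, Itga4 and Itgb2, while Icam1, Icam2 and Madcam1 stay pale in all 6 mice.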

How the data were processed

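The deposited values are log2 expression values per probe set from RMA, which the authors computed with the Transcriptome Analysis Console, per the labels. No label states the software version, the RMA variant or the genome build. Scanner files were not used here. RMA compresses differences near background. Of 28846 probe sets, 6640 controls were left out, and 22206 were tested. Symbols came from GEO's platform annotation, with 1 symbol for 19572 probe sets, several for 0 and none for 2634. The probe set with the highest mean stood for a gene.

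Groups came from the sample titles. Myd88-/- was compared with Myd88+/+ by limma 3.58.1 in R 4.3.3 (lmFit, eBayes, no covariates), and p-values were adjusted over the 22206 probe sets after Benjamini and Hochberg, with a call under 0.05. The fit was tested on simulated data. Single array measures had a two-sided exact permutation test. Each array is labelled as a separate mouse, and the number of arrays limits the precision. No pair of arrays was identical (0 of 15). No gene list was tested as a set.

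The members and lists were chosen with earlier results of these data known. The 5 wider lists held 84 genes, 82 of them measured, and the 15 marker lists 115, of which 102 were measured. Genes are named by rule: the 10 members, Myd88, up to 4 genes per wider list and 2 per marker list with the smallest unadjusted p, and the 2 genes nearest in pattern to each member above the background control median with values spanning over 1 log2 unit. Markers of skeletal muscle and adipocytes were also listed. Their median differences were 0.27 and 0.09. Of genes the rule picks, Ckm had -0.65 and Myh4 0.52 (muscle), Retn 0.21 and Cidec -0.16 (adipocytes) and Klk1b9 0.12 (ducts), and these 5 are not described further. Granular duct markers had 0.05 and acinar markers -0.10, and lymphatic markers -0.08. The alternatives were quantile normalization, median centring, cyclic loess, leaving out the dimmest 30% or 50%, an intensity trend with robust variances, no moderation, array weights, the replicate number as a block, the mean over all probe sets of a gene and leaving out each mouse.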

Additional observations from a re-analysis of the deposited data

How the results depend on the processing

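Of 138 recomputed differences of the 10 adhesion genes, 134 kept their sign and none passed the adjusted threshold (0 of 138). The count of kept signs includes settings under which a difference cannot change. These are the intensity trend with robust variances, no moderation, the replicate block and leaving out dim probe sets. Only their p-values could move. Sign turned in 4. Icam1 ran from -0.066 to 0.22 on leaving out 1 mouse and turned without Myd88+/+ replicate 1. Selp turned under cyclic loess (-0.0027), and ran from -0.19 to 0.28 on leaving out 1 mouse, turning without replicate 2 of either group. The smallest adjusted p reached under any setting was 0.271, for Itgb2. Over all probe sets 0 were called, against 2 with median centring, 4 with an intensity trend and robust variances, and 0 to 5 on leaving out 1 mouse. At an unadjusted p under 0.05, 999 probe sets were higher, against 619 and 323 without the dimmest 30% and 50%, where fewer were tested. Means were lower in 6 of the 10 adhesion genes, and in 3 of the 3 that were left without the dimmest 50%. Groups did not overlap in 1 of them, against 2 with quantile normalization, 3 with median centring, 2 with cyclic loess, 0 without the dimmest 30%, 0 without the dimmest 50%, and 1 to 5 without 1 mouse, where fewer mice make overlap rarer. At an unadjusted p under 0.05 there were 2, against 1 without the dimmest 30%, 1 without the dimmest 50%, 1 without variance moderation and 0 to 2 without 1 mouse. In the deposited values, 5.55% of all probe sets were lower and 4.5% higher at that level. Groups did not overlap in 7.25% of all probe sets on the lower and 7.84% on the higher side. The shares without overlap under the other settings are not given here. Itga4 and Itgb2 were not held at an unadjusted p under 0.05 without Myd88-/- replicate 2 or without Myd88+/+ replicate 3. Among other named genes, differences with 1 mouse left out ran for Cd79a from -0.40 to 0.14, for Cd22 from -0.027 to 0.28, for Smgc from -0.47 to 0.048, for Aqp5 from -0.26 to 0.029 and for Egf from -0.15 to 0.55, and Egf turned with array weights too (-0.17). The cause of these changes was not tested. All adhesion genes have 1 probe set, so averaging probe sets alters nothing.

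Same-numbered mice are not known to be paired. Their deviations from the group means correlated at -0.11, -0.15 and -0.02 across probe sets. Those of differently numbered mice correlated between -0.12 and 0.20. With 3 mice per group such values cannot show whether mice shared a litter or a batch. With the replicate block 0 probe sets and 0 of the 10 adhesion genes passed. Each number occurs once per group, so the block cannot alter a difference. Those of Itga4 and Itgb2 are -0.76 and -0.65 by construction. Dim signal limits Icam1, Madcam1, Sele, Selp and Itgb2 most, and 3 mice per group limit all values. The means of Icam2 (5.91) and Itgal (6.04) also lie under the intron control median of 6.14.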
